A study of Mus musculus with 8 samples.

Results

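The genes described here encode 10 costimulatory and coinhibitory receptors of T cells: *Cd28*, *Icos*, *Ctla4*, *Pdcd1*, *Btla*, *Lag3*, *Havcr2*, *Tigit*, *Cd96* and *Cd226*. They were picked by name as a family, with earlier results of these data known, and were 10 of the 20172 genes in the expression table. Regulatory T cells (Tregs), the Foxp3-expressing CD4+ T cells that restrain immune responses, had been sorted from the spleen by whether they carried TNFR2, a receptor for tumour necrosis factor, on their surface. RNA of the sorted cells was sequenced in 4 libraries of TNFR2+ Tregs and 4 libraries of TNFR2- Tregs. All mice were female Foxp3 YFP-cre animals (also written Foxp3CreYFP), in which the *Foxp3* locus drives a YFP and Cre reporter, and both populations were sorted as YFP+ CD4+ cells with no treatment named. The mice were young adults by the study's methods, and the labels do not say whether the libraries of a group came from separate mice or from pools, so the p-values measure the spread between these libraries, which may be technical. Because a library averages many sorted cells, fewer cells expressing a gene and less RNA per cell cannot be told apart.

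A T cell reads its antigen together with these receptors. CD28 is the main costimulatory receptor and binds CD80 and CD86 on antigen-presenting cells. CTLA-4 binds the same ligands more tightly and removes them from the presenting cell, a main suppressive route of Tregs, while ICOS binds a ligand of its own and favours effector Tregs. PD-1 (*Pdcd1*) and BTLA recruit phosphatases through tyrosine motifs of their tails. LAG-3 binds MHC class II, and TIM-3 (*Havcr2*) has several ligands, among them galectin-9. TIGIT and CD96 share with the activating receptor CD226 the ligand CD155, which is encoded by *Pvr*.

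*Cd28*, *Ctla4* and *Icos* lie next to each other on mouse chromosome 1 and have similar exons, and short coding stretches show both what they share and where they differ. The coordinates are those of GRCm38 and the sequences are read 5′ to 3′ on the coding strand. In each line the capitals mark the 6 codons of the loop, in exon 2 of 4, with which CD28 and CTLA-4 touch their shared ligands, or the aligned codons of *Icos*, whose ligand is another protein. The stretches lie at chr1:60763260-60763307 for *Cd28*, chr1:60912698-60912745 for *Ctla4* and chr1:60993968-60994015 for *Icos*, all on the plus strand.
Cd28: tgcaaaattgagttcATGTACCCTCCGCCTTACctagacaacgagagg
Ctla4: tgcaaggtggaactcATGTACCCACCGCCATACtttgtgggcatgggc
Icos: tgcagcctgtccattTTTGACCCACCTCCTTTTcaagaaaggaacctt

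Of the 18 bases in capitals, *Cd28* and *Ctla4* shared 16, and *Icos* shared 11 with either. The cytoplasmic tails hold a second short motif in exon 4 of 4, around a tyrosine that recruits phosphatidylinositol 3-kinase in CD28 and ICOS and the adaptor for endocytosis in CTLA-4. Its 4 codons are the capitals below, at chr1:60769678-60769719 for *Cd28*, chr1:60914631-60914672 for *Ctla4* and chr1:60995545-60995586 for *Icos*.
Cd28: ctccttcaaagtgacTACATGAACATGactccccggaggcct
Ctla4: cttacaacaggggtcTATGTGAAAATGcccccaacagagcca
Icos: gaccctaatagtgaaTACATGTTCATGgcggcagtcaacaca

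Of these 12 bases *Cd28* shared 10 with *Icos* and 9 with *Ctla4*, and *Ctla4* and *Icos* shared 7. So the loop of *Ctla4* is closest to that of *Cd28*, while the tail motif of *Cd28* is closest to that of *Icos*. PD-1, TIGIT and BTLA carry another tyrosine motif, an inhibitory one, whose 6 codons are in capitals for *Pdcd1* (chr1:94039473-94039520, minus strand, exon 5 of 5), *Tigit* (chr16:43649019-43649066, minus strand, exon 4 of 4) and *Btla* (chr16:45250475-45250522, plus strand, exon 6 of 6). They are shown because the first 2 of these receptors differed between the populations and *Btla* did not pass the test.
Pdcd1: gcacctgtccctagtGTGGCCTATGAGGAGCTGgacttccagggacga
Tigit: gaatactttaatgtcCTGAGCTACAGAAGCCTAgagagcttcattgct
Btla: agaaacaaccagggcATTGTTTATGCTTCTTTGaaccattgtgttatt

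The libraries summed to between 9576920 and 11492762 normalized counts and rested on an estimated 9100000 to 12110000 reads each. *Tnfrsf1b*, the gene of TNFR2, followed the sort: its normalized counts were 3148, 1840, 2631 and 2383 in replicates 1 to 4 of the TNFR2+ population and 1266, 1563, 1177 and 1277 in those of the TNFR2- population, without overlap (libraries are listed in this order throughout), with a difference that passed the test (log2 fold change 0.90, SE 0.16, limma adjusted p = 0.00449). All 7 Treg and CD4 T cell markers were in the table, and their sum was 26123 to 29842 in TNFR2+ and 20124 to 24605 in TNFR2- libraries. They did not move alike: 3 of the 7 were called higher, beside 4.52% of all tested genes, and 2 had a fold change below 0, *Foxp3* among them. TNFR2- Treg replicate 3 stood apart on the second principal component, which held 15.9% of the variance. Its score was 50.1, against -25.7 to 15.5 in the other 7 libraries. Some results are therefore also given without this library.

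All 10 receptors passed the filter of a mean of at least 10 normalized counts and were tested with limma across 13990 genes. *Ctla4*, *Icos*, *Tigit*, *Pdcd1* and *Lag3* were higher in TNFR2+ Tregs, and none of the 10 was called lower at an adjusted p under 0.05. That is 5 of 10 called higher, beside 4.52% of all tested genes, and 0 called lower, beside 3.39% of all tested genes. At an unadjusted p under 0.05 the count was 6, the additional gene being *Cd28* with a lower mean, and 23.0% of all tested genes met this looser limit. The median log2 fold change of the 10 was 0.94, beside -0.01 over all tested genes. The variance of a gene was moderated towards a trend on intensity, and without that trend only *Ctla4* was called, 1 of 10, with 465 rather than 1107 genes called in all.

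**Figure D1:**
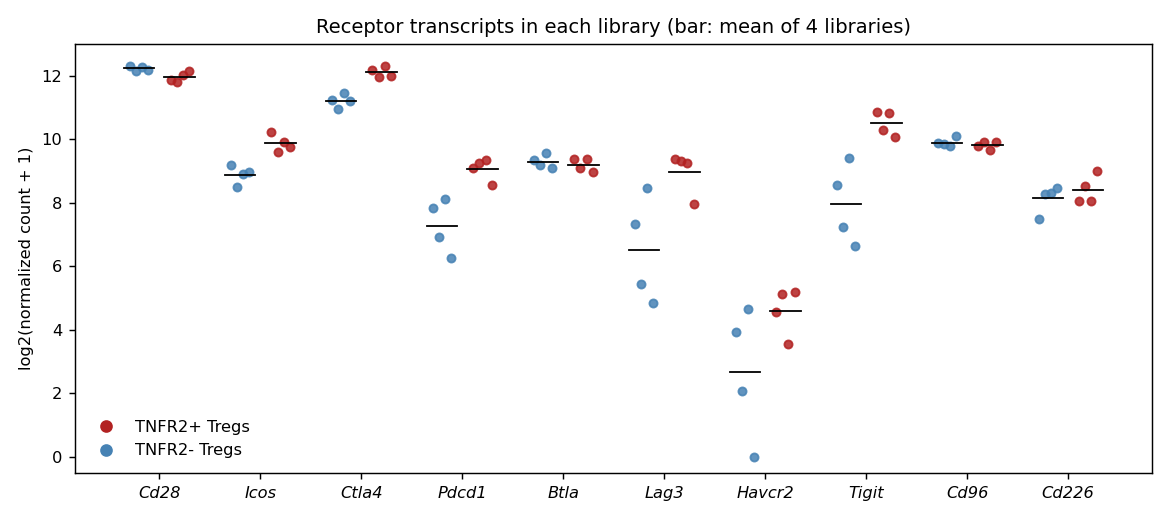
Each point is the value of a receptor gene in a library, as log2(normalized count + 1) on the vertical axis, with the 4 TNFR2- libraries in blue, the 4 TNFR2+ libraries in red and a bar at the mean of each 4. The red and blue points are apart for Ctla4, Icos, Tigit and Pdcd1, with red above, and for Cd28, with red below, while the widest spread within a population is that of Lag3, Tigit and Havcr2 in TNFR2- Tregs.

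*Ctla4* (ENSMUSG00000026011, chr1:60887000-60915832, plus strand) was the most abundant of the receptors that differed. It stood at 4678, 3968, 5030 and 4069 normalized counts in the TNFR2+ libraries and at 2426, 1985, 2829 and 2362 in the TNFR2- libraries. Every TNFR2+ library was above every TNFR2- library, as for *Icos*, *Tigit* and *Pdcd1* among the receptors and for 8.08% of all tested genes (15.4% had no overlap in either direction). The means were 4436 ± 505 and 2400 ± 345 (SD, n = 4 each), a 1.85-fold ratio, and the log2 fold change was 0.89 (SE 0.13, 95% interval 0.61 to 1.17, limma adjusted p = 0.00120). The exact permutation test gave p = 0.0286, the smallest that 4 libraries against 4 allow. *Ctla4* was called in all 8 fits that left out a library and in all 9 alternative fits with all libraries.

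*Icos* (ENSMUSG00000026009, chr1:60977927-61000320, plus strand) rose by a similar factor from a lower level. Its values were 1208, 772, 965 and 866 normalized counts in the TNFR2+ libraries and 589, 359, 474 and 501 in the TNFR2- libraries, again without overlap. The means were 953 ± 187 and 481 ± 95.1 (SD, n = 4 each), and the log2 fold change was 0.99 (SE 0.19, 95% interval 0.58 to 1.40, limma adjusted p = 0.00669, without the intensity trend 0.0539). *Gm37039*, a gene model on the same strand inside *Icos*, was counted as a gene of its own with means of 149 and 111 normalized counts, so some reads of this locus may have been divided between the models.

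*Cd28* (ENSMUSG00000026012, chr1:60716800-60773359, plus strand) went the other way by a small amount. It stood at 3739, 3579, 4164 and 4512 normalized counts in the TNFR2+ libraries and at 5106, 4591, 4934 and 4674 in the TNFR2- libraries. Every TNFR2+ library was below every TNFR2- library, which held for 7.29% of all tested genes. The means were 3999 ± 422 and 4826 ± 237 (SD, n = 4 each), and the log2 fold change of -0.28 (SE 0.11, 95% interval -0.51 to -0.05) did not pass the test over all genes (limma adjusted p = 0.136, unadjusted p = 0.0220). With each library scaled to the same sum, which moved the median of all tested genes from -0.01 to 0.12 on the log2 scale, the value for *Cd28* was -0.15 (limma adjusted p = 0.470).

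The ratio of 2 receptors within a library does not depend on how libraries were scaled, and it was computed for 4 pairs that share ligands or a family. *Ctla4* to *Cd28* was 1.25, 1.11, 1.21 and 0.902 in the TNFR2+ libraries and 0.475, 0.432, 0.573 and 0.505 in the TNFR2- libraries, as a ratio of normalized counts. *Ctla4* counts thus exceeded those of *Cd28* in 3 of 4 TNFR2+ libraries and in no TNFR2- library. These counts are not corrected for length, and the longest coding transcripts have 1933 bases for *Ctla4* and 4347 for *Cd28*. Per kilobase of that transcript, *Ctla4* was above *Cd28* in all 4 TNFR2+ libraries and in 3 of 4 TNFR2- libraries. The ratio therefore shows a shift between the populations, not which transcript was the more abundant. The log2 ratio differed by 1.17 (SE 0.14) with an exact permutation p of 0.0286, which was 0.0571 after adjustment over the 4 pairs, the lowest value this design allows when 2 of 4 pairs reach the smallest p. *Icos* to *Cd28* was 0.323, 0.216, 0.232 and 0.192 against 0.115, 0.0781, 0.0961 and 0.107, a log2 difference of 1.26 (SE 0.20) with the same exact permutation p of 0.0286 and adjusted p of 0.0571. Neither ratio overlapped between the populations.

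**Figure D2:**
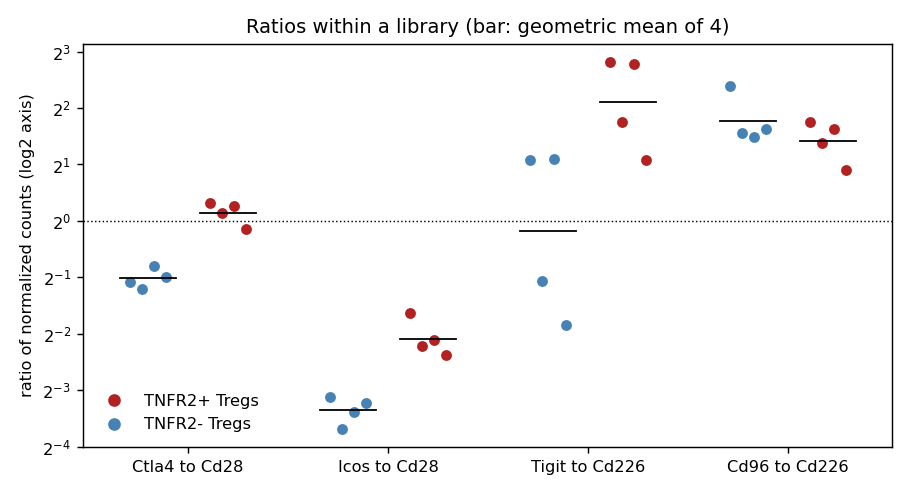
Each point is the ratio of the normalized counts of 2 receptors in a library, on a log2 axis, for 4 pairs of receptors with TNFR2- Tregs in blue and TNFR2+ Tregs in red, and bars at the geometric mean of 4 libraries. The red and blue points are apart for Ctla4 to Cd28 and Icos to Cd28, meet between 2.11 and 2.14 for Tigit to Cd226, and overlap for Cd96 to Cd226.

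*Tigit* (ENSMUSG00000071552, chr16:43648867-43664146, minus strand) had the highest fold change of the 10 receptors. It stood at 1859, 1245, 1816 and 1082 normalized counts in the TNFR2+ libraries and at 381, 149, 676 and 98.6 in the TNFR2- libraries. The groups did not overlap, although TNFR2- libraries differed among themselves by 6.86-fold. The means were 1501 ± 395 and 326 ± 264 (SD, n = 4 each), and the log2 fold change was 2.55 (SE 0.47, 95% interval 1.54 to 3.56, limma adjusted p = 0.00482, without the intensity trend 0.0613). It was called in all 8 fits without a library, between 2.11 and 3.03 on the log2 scale.

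The other receptors of the CD155 ligand did not pass the test. *Cd226* (ENSMUSG00000034028, chr18:89176967-89272229, plus strand), the activating member, stood at 265, 371, 263 and 512 normalized counts in TNFR2+ libraries and at 179, 312, 316 and 354 in TNFR2- libraries, which overlap (log2 fold change 0.27, SE 0.27, 95% interval -0.32 to 0.86, limma adjusted p = 0.610). *Cd96* (ENSMUSG00000022657, chr16:46035657-46120251, minus strand) stood at 893, 968, 814 and 956 against 935, 915, 888 and 1090 normalized counts. Its log2 fold change was -0.08 (SE 0.14, 95% interval -0.37 to 0.22, limma adjusted p = 0.793), an interval that leaves out a change of the size seen for *Tigit*, and its sign turned to 0.05 with libraries scaled to the same sum. The *Tigit* to *Cd226* ratio was 7.01, 3.36, 6.90 and 2.11 in the TNFR2+ libraries and 2.12, 0.479, 2.14 and 0.278 in the TNFR2- libraries. It differed by 2.28 on the log2 scale (SE 0.86) but overlapped, with an exact permutation p of 0.0857, or 0.114 after adjustment. *Cd96* to *Cd226* differed by -0.34 (SE 0.28, exact permutation p = 0.371).

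*Pdcd1* (ENSMUSG00000026285, chr1:94038305-94052553, minus strand) stood at 549, 608, 648 and 375 normalized counts in the TNFR2+ libraries and at 227, 120, 275 and 76.2 in the TNFR2- libraries. The populations did not overlap, and the lowest library of each was replicate 4. The means were 545 ± 120 and 175 ± 92.0 (SD, n = 4 each), a 3.12-fold ratio, with a log2 fold change of 1.78 (SE 0.35, 95% interval 1.01 to 2.54, limma adjusted p = 0.00801, without the intensity trend 0.0645). *Btla* (ENSMUSG00000052013, chr16:45224315-45257670, plus strand) has the same kind of tail motif, and its values overlapped: 669, 550, 659 and 498 normalized counts in TNFR2+ and 648, 578, 754 and 549 in TNFR2- libraries. Its log2 fold change was -0.09 (SE 0.17, 95% interval -0.45 to 0.27, limma adjusted p = 0.802), and it turned to 0.04 with libraries scaled to the same sum.

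*Lag3* (ENSMUSG00000030124, chr6:124904361-124911705, minus strand) had the second highest fold change among the called receptors but the least even libraries. Its normalized counts were 670, 633, 612 and 248 in the TNFR2+ libraries, replicates 1 to 4, and 159, 42.6, 353 and 27.6 in the TNFR2- libraries. TNFR2- Treg replicate 3 was above TNFR2+ Treg replicate 4, so the groups overlapped. The log2 fold change was 2.46 (SE 0.64, 95% interval 1.07 to 3.85, limma adjusted p = 0.0327), and the exact permutation p was 0.0571. The call was lost in 5 of the 8 fits without a library, with limma adjusted p from 0.0867 to 0.102 without TNFR2+ Treg replicates 1, 2 or 3 or TNFR2- Treg replicates 2 or 4. Without TNFR2- Treg replicate 3 the log2 fold change was 3.11 (limma adjusted p = 0.00360).

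*Havcr2* (ENSMUSG00000020399, chr11:46454935-46481255, plus strand) was the least abundant of the 10. It stood at 22.4, 34.2, 10.8 and 35.7 normalized counts in the TNFR2+ libraries and at 14.2, 3.24, 24.0 and 0 in the TNFR2- libraries, and the groups overlapped. The log2 fold change on the log2(count + 1) scale was 1.95 (SE 0.99, 95% interval -0.20 to 4.10, limma adjusted p = 0.265), and at these counts it moved between 1.23 and 2.23 with the pseudocount. Without TNFR2- Treg replicate 4 it was 1.06 and without TNFR2- Treg replicate 3 it was 2.61, so the size of this difference is not settled by these libraries.

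**Figure D3:**
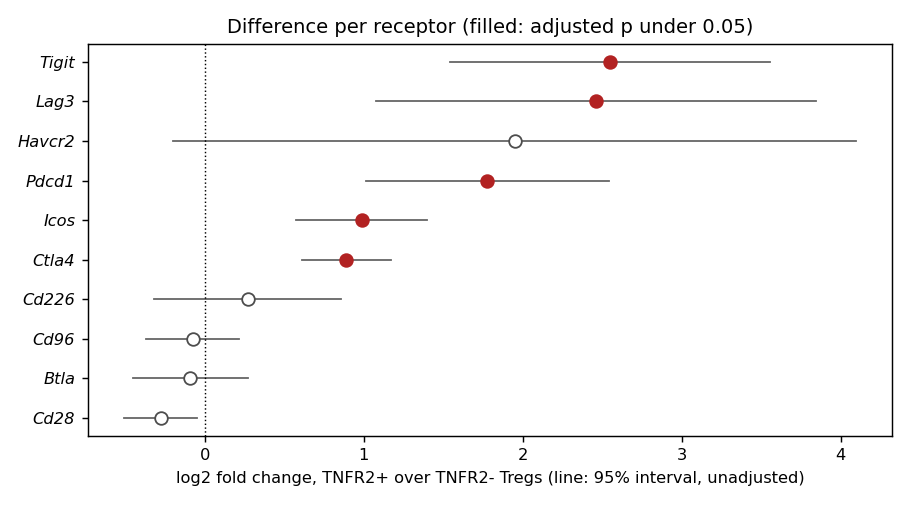
The horizontal axis is the log2 fold change of TNFR2+ over TNFR2- Tregs for each receptor, with a line for its 95% interval (not adjusted for the number of genes), and filled points mark an adjusted p under 0.05. Tigit (2.55), Lag3 (2.46), Pdcd1 (1.78), Icos (0.99) and Ctla4 (0.89) are filled, and the intervals of Cd226, Cd96, Btla and Havcr2 include 0.

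Markers of other cells that can carry these receptors were low or moved with them as follows. The NK cell list, for cells that carry TIGIT, CD96, CD226 and LAG-3, had 3 of its 8 genes in the table, with a sum of 34.9 to 55.3 normalized counts in TNFR2+ and 45.7 to 75.5 in TNFR2- libraries. The 2 CD8 T cell markers summed to 46.0 to 64.2 and 44.5 to 76.1. The B cell list, for cells that carry BTLA, CD80 and CD86, had 8 of 10 genes in the table and summed to 4723 to 6925 in TNFR2+ and 1914 to 3193 in TNFR2- libraries, through *Ighm* (log2 fold change 1.27, limma adjusted p = 7.45e-04) and *Cd74* (1.72, limma adjusted p = 9.12e-04). The other 3 tested genes of this list had fold changes above 0 that were not called (*Cd22* 1.20, limma adjusted p = 0.0612, *Cd79b* 0.94 and *Ms4a1* 0.26). The untested B cell genes *Cd79a* and *Blk* stood at 0 to 6.10 and 0 to 3.41 over all libraries and *Pax5* at 0 to 9.68, apart from 41.5 in TNFR2- Treg replicate 3. The myeloid list, for cells that carry *Havcr2* and the ligands, had 5 of 12 genes in the table and summed to 180 to 224 and 129 to 225. The part of RNA from other cells in the receptor differences was not tested.

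Genes of dividing cells also moved with the receptors. The 7 proliferation markers summed to 5738 to 9128 normalized counts in TNFR2+ and to 2126 to 3334 in TNFR2- libraries, 4 of the 7 were called higher, beside 4.52% of all tested genes, and *Mki67*, the Ki-67 gene, had a log2 fold change of 2.84 (limma adjusted p = 3.52e-04). Whether the receptor differences follow the share of dividing cells was not tested.

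Per kilobase of the longest coding transcript, which allows levels of different genes to be compared, *Ctla4* was first in both populations, with 2295 ± 261 normalized counts per kilobase for the TNFR2+ libraries and 1242 ± 179 for the TNFR2- libraries (SD, n = 4 each). *Tigit* was next in TNFR2+ Tregs at 1633 ± 430 per kilobase and below *Ctla4* in all 4 libraries, whereas in TNFR2- Tregs it held the fourth place at 355 ± 287. *Cd28* stood at 920 ± 97.1 per kilobase in TNFR2+ Tregs, below *Tigit* in all 4 libraries, and at 1110 ± 54.5 in TNFR2- Tregs. There it was not separated from *Ctla4*, which was above it in 3 of 4 libraries. *Cd96* followed at 416 ± 32.5 and 438 ± 41.4 per kilobase.

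The lower part of the order was closer together. In TNFR2+ Tregs, *Icos* (294 ± 57.8 per kilobase), *Pdcd1* (282 ± 62.4), *Lag3* (270 ± 98.1) and *Btla* (183 ± 25.7) came after *Cd96*, and none of these neighbours was above the next in all 4 libraries. In TNFR2- Tregs, *Btla* (194 ± 28.0 per kilobase) was not separated from *Tigit*, nor *Tigit* from *Cd96*, while *Btla* was above *Icos* (148 ± 29.3) and *Icos* above *Pdcd1* (90.5 ± 47.7) in all 4 libraries. *Pdcd1*, *Lag3* (72.7 ± 75.1) and *Cd226* (64.6 ± 17.0), next in this order, were not separated from each other. *Havcr2* was last in both populations, below *Cd226* in every library. With the union of all exons as the length, the only change of order was that *Pdcd1* came before *Icos* in TNFR2+ Tregs. In TNFR2- Tregs the means of *Ctla4* and *Cd28* were then 1030 ± 148 and 788 ± 38.7 per kilobase (SD, n = 4 each). How far apart these genes stood there thus depends on the length chosen.

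**Figure D4:**
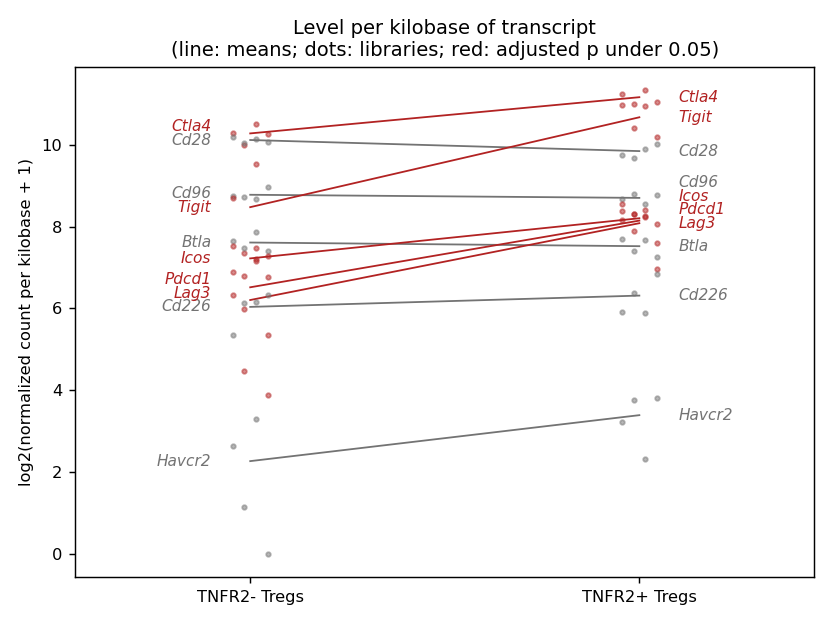
The vertical axis is log2(normalized count per kilobase of the longest coding transcript + 1), with TNFR2- Tregs on the left and TNFR2+ Tregs on the right, a line between the means of each receptor and a dot for each library, and red for receptors with an adjusted p under 0.05. The line of Tigit crosses those of Cd96 and Cd28 as its mean rises from 355 to 1633 per kilobase, and the lines of Cd28, Cd96 and Btla are nearly level.

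Within a population, the called receptors were often highest or lowest in the same library. In TNFR2- Tregs, replicate 3 was the highest library for 4 of the 5 called receptors and replicate 1 for *Icos*, while replicate 4 was the lowest for *Pdcd1*, *Lag3* and *Tigit*, and replicate 2 for *Icos* and *Ctla4*. The spread from lowest to highest TNFR2- library was 12.8-fold for *Lag3*, 6.86-fold for *Tigit* and 3.60-fold for *Pdcd1*, and 1.11-fold for *Cd28*. In TNFR2+ Tregs, replicate 4 was the lowest for the same 3 genes. It was also the lowest for 25.9% of all tested genes and for 47.9% of the 633 genes called higher. Among TNFR2- libraries, replicate 3 was the highest and replicate 4 the lowest for 11.2% of all tested genes. This held for 18.8% of the genes called higher.

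The ligands of these receptors can be made by Tregs as well as by presenting cells, and 13 of 16 listed ligand genes were in the table and 10 were tested. None was called in either direction at an adjusted p under 0.05, beside 7.91% of all tested genes, while 4 had an unadjusted p under 0.05 in limma, beside 23.0%. The median log2 fold change was 0.41 beside -0.01 over all tested genes, but it was -0.11 when only genes with a mean of at least 50 were kept. *Pdcd1lg2*, the gene of PD-L2, stood at 60.8, 53.7, 133 and 57.1 normalized counts against 33.4, 4.20, 28.9 and 18.6 (log2 fold change 1.99, SE 0.62, limma adjusted p = 0.0684). *Cd274*, for PD-L1, was far more abundant at 1206 ± 72.0 and 917 ± 127 (SD, n = 4 each), with a log2 fold change of 0.40 (limma adjusted p = 0.0989). *Pvr*, for CD155, stood at 392 ± 62.5 and 638 ± 199 (log2 fold change -0.67, limma adjusted p = 0.0832), and *Nectin1*, a nectin related to the ligands of this family, stood below 70 in every library (3.10, limma adjusted p = 0.0604). The CD28 ligand *Cd86* stood at 314 ± 78.5 and 332 ± 136, and *Cd80* was at or below 29.0 in every library.

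Of 24 further costimulatory and inhibitory receptors, 22 were tested, 1 rose and 2 fell (13.6% called, beside 7.91% of all tested genes), with a median log2 fold change of 0.00. *Cd160*, a receptor that shares its ligand with BTLA, was higher (53.2 ± 9.75 against 13.2 ± 10.6, log2 fold change 2.27, limma adjusted p = 0.0449). *Pecam1*, an adhesion receptor with inhibitory motifs, was lower (1088 ± 287 against 2475 ± 615, log2 fold change -1.18, limma adjusted p = 0.00344), as was *Cd7* (-2.08, limma adjusted p = 0.0409). *Vsir*, the gene of VISTA, was at 1604 ± 255 and 2324 ± 385 and missed the threshold (-0.53, limma adjusted p = 0.0547). Both *Cd160* and *Cd7* kept their call in only 2 of the 8 fits without a library, while *Pecam1* kept it in all 8.

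Downstream of CD28 and ICOS, all 23 listed genes were tested, 1 was higher and 5 were lower in TNFR2+ Tregs (26.1% called, beside 7.91% of all tested genes), with a median of -0.09. The small negative medians of this list and of the next, and that of the decay factors, turned positive with libraries scaled to the same sum (0.04, 0.02 and 0.10), as did that of all tested genes (0.12). *Grap2*, whose product Gads is an adaptor that binds the CD28 tail, fell most (524 ± 89.7 against 1607 ± 369, SD, n = 4, log2 fold change -1.60, SE 0.19, limma adjusted p = 4.86e-04). *Prkcq*, for the kinase PKC-theta that CD28 brings to the synapse, fell from 4879 ± 436 to 2587 ± 302 (-0.92, SE 0.12, limma adjusted p = 6.10e-04). *Pik3cd*, the leukocyte catalytic subunit of phosphatidylinositol 3-kinase, fell by less (log2 fold change -0.58, limma adjusted p = 0.00791). *Malt1*, a protease of NF-kB activation, was higher (0.80, limma adjusted p = 0.0487), but its groups overlapped and its call held in 2 of 8 fits without a library. *Grap2*, *Prkcq* and *Pik3cd* were called in all 8 such fits.

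Downstream of the inhibitory receptors, 22 genes were tested, none was higher and 2 were lower, with a median of -0.11. That is 9.09% called, close to the 7.91% of all tested genes. *Dgka*, a kinase that removes diacylglycerol and so dampens signalling after CD28, fell from 9285 ± 916 to 4852 ± 576 (log2 fold change -0.94, SE 0.11, limma adjusted p = 4.94e-04), and *Pag1*, which anchors the inhibitory kinase Csk, fell from 1417 ± 243 to 605 ± 125 (-1.23, SE 0.18, limma adjusted p = 0.00120). Both kept their call in all 8 fits without a library. The phosphatase gene *Ptpn11*, for SHP-2, stood at 0.75 (limma adjusted p = 0.114) and the ubiquitin ligase gene *Cblb* at -0.30 (limma adjusted p = 0.154).

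CTLA-4 is kept mostly inside the cell, and 14 genes of its traffic were tested, of which 2 were higher and 1 was lower (21.4% called, beside 7.91% of all tested genes, median 0.07). *Lrba*, whose product saves CTLA-4 from lysosomes, was at 4422 ± 657 and 3035 ± 519 (log2 fold change 0.55, limma adjusted p = 0.0409). *Snx9*, an endocytic sorting nexin, was higher (1.03, limma adjusted p = 0.0324), *Pld1*, a phospholipase D, was lower (-0.80, limma adjusted p = 0.0317), and *Def6* missed the threshold (-0.44, limma adjusted p = 0.0613). The count of called genes in this list was 0 in 6 of the 8 fits that left out a library (each except those without TNFR2+ Treg replicate 4 or TNFR2- Treg replicate 3).

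Factors that destabilise messenger RNAs such as *Icos* and *Ctla4* were listed together with the protease gene *Malt1*. Of the 12 tested, 3 were higher, *Malt1* among them (beside 4.52% of all tested genes), and 3 were lower (beside 3.39%), with a median of -0.03. *Zc3h12d* was higher (949 ± 78.0 against 469 ± 27.2, log2 fold change 1.02, limma adjusted p = 9.75e-04), whereas *Zc3h12a*, its relative that encodes Regnase-1, was lower (-0.45, limma adjusted p = 0.0299). In the TTP family, *Zfp36l1* was higher (0.55, limma adjusted p = 0.00506), and *Zfp36l2* (-0.42, limma adjusted p = 0.0196) and *Zfp36* (-0.52, limma adjusted p = 0.0282) were lower. *Malt1*, which cleaves several of these proteins, is the remaining called gene and belongs to both lists. *Rc3h1*, for Roquin-1, which acts on *Icos* messenger RNA, did not pass the test. *Zc3h12d* and *Zfp36l1* kept their call in all 8 fits without a library, *Zfp36l2* in 5, *Zc3h12a* in 3 and *Zfp36* in 2. With libraries scaled to the same sum, 3 of the 12 were called.

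Of 18 transcription factors that act on these receptor genes, 7 were higher (beside 4.52% of all tested genes) and 1 was lower (beside 3.39%), with a median of 0.90. *Nr4a1*, an early target of T cell receptor signalling, fell from 6868 ± 816 to 3489 ± 460 (log2 fold change -0.98, SE 0.13, limma adjusted p = 5.87e-04), while its relative *Nr4a2* rose from 1137 ± 415 to 3047 ± 508 (1.50, SE 0.25, limma adjusted p = 0.00253). *Nfatc1* (1.10, limma adjusted p = 0.00253) and *Batf*, an AP-1 factor of effector Tregs (499 ± 77.1 against 206 ± 53.9, limma adjusted p = 0.00411), were also called higher in all 8 fits without a library. The other called genes were *Ikzf2*, *Tox*, *Prdm1* and *Maf*, all higher, with calls in 6, 5, 2 and 2 of those 8 fits. *Foxp3* itself did not pass the test (-0.23, limma adjusted p = 0.232). The count of called genes in this list was 8 with all libraries and 11 without TNFR2- Treg replicate 3.

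ICOS, PD-1 and CTLA-4 are also known from follicular regulatory T cells, and of 9 tested genes of these cells 3 were higher, beside 4.52% of all tested genes, and none was lower (median 1.09). *Angptl2* rose from 75.7 ± 47.3 to 427 ± 132 (log2 fold change 2.66, SE 0.41, limma adjusted p = 0.00177) and *Il1r2*, a decoy receptor for interleukin-1, from 204 ± 168 to 1032 ± 404 (2.64, SE 0.53, limma adjusted p = 0.00796). *Maf* was the other (0.99, limma adjusted p = 0.0431, called in 2 of 8 fits without a library), and *Cebpa* missed the threshold (1.50, limma adjusted p = 0.0768). *Bcl6*, the defining factor of follicular T cells, stood at 747 ± 36.5 and 616 ± 133 (0.30, limma adjusted p = 0.325). The count rose from 3 to 6 without TNFR2- Treg replicate 3.

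**Figure D5:**
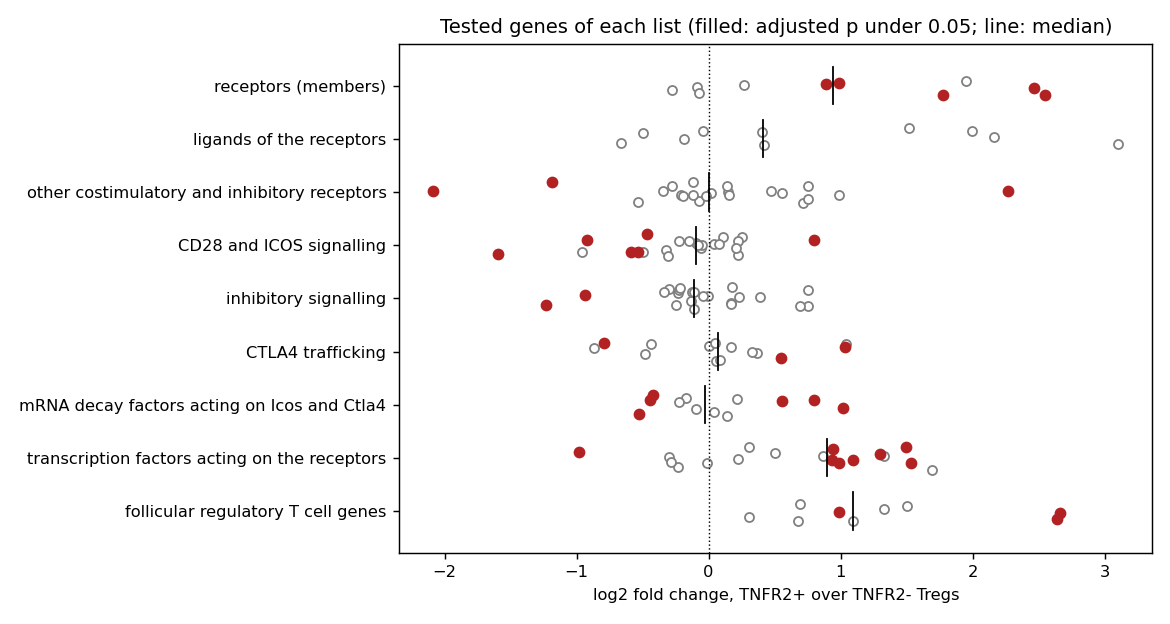
Each point is the log2 fold change of a tested gene, TNFR2+ over TNFR2- Tregs, in the receptors and in 8 gene lists around them, filled where the adjusted p is under 0.05, with a line at the median of each list. The medians of the receptors (0.94), the transcription factors (0.90) and the follicular genes (1.09) lie to the right of 0, and the called genes of the CD28 and inhibitory signalling lists are on the left apart from Malt1.

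The receptor genes are spread over 5 chromosomes, and those of the CD28 family are neighbours on chromosome 1: *Cd28* is 114 kb from *Ctla4*, and *Ctla4* is 62.1 kb from *Icos*. Of 71 other tested coding genes within 500 kb of a receptor, 7 were higher and 1 was lower (11.3% called, beside 7.91% of all tested genes). On the *Cd28* side *Abi2* was higher (log2 fold change 1.10, limma adjusted p = 0.0292) and *Raph1*, the closest, did not pass (0.79, limma adjusted p = 0.280). The other 6 higher genes lay among the 33 around *Lag3*, a gene-dense stretch that includes *Ptms* at 1.98 kb (0.82, limma adjusted p = 0.0307) and, farther away, *Ncapd2*, *Gapdh*, *Eno2*, *Tpi1* and *Cdca3*, while *Cd4*, at 16.1 kb, did not pass (0.28, limma adjusted p = 0.192). No gene within 500 kb of *Tigit*, *Btla*, *Cd96*, *Pdcd1* or *Cd226* was called besides the receptors themselves.

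Profiles over the 8 libraries were compared by the root mean square difference of log2 values, each gene centred on its mean, among 10245 genes with a mean of at least 50. This is a description. The difference between the 2 populations shapes the profiles of the called receptors, whereas the populations overlapped for *Btla*, *Cd96* and *Cd226*. The gene closest to both *Lag3* (0.31) and *Tigit* (0.31) was *Il1r2*, followed by *Nrbp2* (0.36) and *Ttbk1* (0.32). Closest to *Ctla4* were *Spcs2* (0.09) and *Itgal* (0.10), to *Icos* *Surf1* (0.16) and *Izumo1r*, the gene of the folate receptor 4 marker of Tregs (0.18), and to *Pdcd1* *Osbpl3* (0.15) and *Ttc39c* (0.17). Those closest to *Cd28* were *Ypel5* and *Tspyl1*, to *Btla* *Sympk* and *H2-Q10*, to *Cd96* *Anxa6* and *Lamp1*, and to *Cd226* *Acaa2* and *Cdk5*, with values from 0.03 to 0.15.

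RefSeq promoters (GRCm38.p6, the 250 bases before the start) were at hand for *Ctla4*, *Pdcd1*, *Btla*, *Havcr2*, *Tigit* and *Cd96*, 6 of the 10 genes. They were searched on both strands for the NFAT core GGAAA, the AP-1 site TGANTCA, the forkhead site GTAAACA and the NF-kB site GGGNNTTCC, and an NF-kB match can overlap an NFAT core. The NFAT core occurred once upstream of *Ctla4*, in 2 places each for *Pdcd1* and *Tigit*, in 4 for *Cd96* and in none for *Btla* and *Havcr2*, and 55.6% of all 32851 promoters hold it. *Havcr2* alone held the AP-1 site, which is in 6.75% of promoters, and the forkhead (3.17%) and NF-kB (4.98%) letters were in none of the 6. The upstream stretches of the called *Tigit* (chr16:43664185-43664434, minus strand) and of *Cd96*, which was not called (chr16:46120249-46120498, minus strand), are shown with the NFAT core or its reverse complement TTTCC in capitals, since both genes hold it and so its presence did not separate them.
Tigit: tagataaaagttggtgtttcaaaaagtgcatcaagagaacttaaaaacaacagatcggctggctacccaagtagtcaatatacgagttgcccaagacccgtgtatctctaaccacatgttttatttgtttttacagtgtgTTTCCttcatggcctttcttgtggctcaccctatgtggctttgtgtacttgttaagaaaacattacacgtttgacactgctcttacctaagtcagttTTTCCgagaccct
Cd96: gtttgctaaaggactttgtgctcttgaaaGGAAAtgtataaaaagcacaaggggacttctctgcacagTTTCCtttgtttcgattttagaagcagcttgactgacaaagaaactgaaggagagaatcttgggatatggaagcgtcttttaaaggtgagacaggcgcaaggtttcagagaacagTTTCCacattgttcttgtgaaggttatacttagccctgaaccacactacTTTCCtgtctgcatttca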

How the data were processed

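The authors prepared stranded total RNA libraries (SMARTer Pico kit, Illumina NovaSeq) from sorted splenic Tregs, processed reads with FastQC 0.11.8 and Trim Galore, estimated transcript abundance with Salmon 1.3.0 on GRCm38 and normalized with DESeq2 1.28 in R 4.0. The deposited signal is the authors' normalized count per gene, not whole reads and not logged, for 20172 genes. How transcripts were summed to genes is not given in the sources used here. Symbols and coordinates came from GENCODE on GRCm38 (20008 identifiers matched). Step sizes of low values in 2806 genes with a single transcript longer than 1500 bases gave the estimated reads. Over all genes only 49.1% to 66.9% of the values up to 12 were whole at that step (within 0.1), so no count test was run.

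Values were taken as log2(normalized count + 1). Genes with a mean of at least 10 were tested with limma 3.58.1 in R 4.3.3 with an intensity trend, two-sided, with Benjamini-Hochberg adjustment over 13990 genes and a threshold of 0.05, without a block. The exact test permuted all 70 divisions of 4 libraries against 4. The procedure was tested on simulated counts whose variance depended only on the mean and in which no library stood apart. That test therefore does not cover genes with uneven libraries. The ratios printed for each library used the normalized counts as deposited. Their log2 differences, SE and exact p used log2(normalized count + 1). Levels per kilobase used the longest coding transcript. Neighbours were coding genes within 500 kb. No coding transcript of a receptor matched another gene over at least 50% of its length at 95% identity (blastn 2.17.0).

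The receptors, gene lists and tests were chosen with earlier results of these data known. The genes named are the receptors, the 4 genes of each list with the smallest unadjusted p, all called genes where a list has 6 or fewer (some are not reported here), the most similar profiles, the neighbours of called receptors, and markers of other cells. *Foxp3*, *Rc3h1*, *Bcl6*, *Cd80* and *Cd86*, *Cd74*, *Mki67*, and the remaining called transcription factors were added after their values were seen. Pseudocounts, filters, scaling, library weights, the trend, a replicate block and the loss of each library were varied. Only the deposited table of normalized values was used, and the precision rests on 4 libraries a population. Replicate numbers were not used as pairs in the main test, because the labels do not say whether they mark a shared mouse or sort.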

Additional observations from a re-analysis of the deposited data

Results flagged for a closer look

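The 10 receptors and the 4 ratios, in both populations, gave 28 sets of 4 libraries. Each set was searched on the log2 scale for a library far from the others. The measure was the gap to its nearest neighbour over the whole range, against Dixon's critical value for 95% confidence. Chance passes it in about 1 of 20 sets, and 2 of 28 passed it. *Lag3* in TNFR2+ Tregs had a gap of 0.908, because replicate 4 stood at 248 normalized counts and the other libraries between 612 and 670. The *Cd96* to *Cd226* ratio in TNFR2- Tregs had a gap of 0.852, because replicate 1 stood at 5.22 and the others between 2.81 and 3.07.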

How the results depend on the processing

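Of the 9 alternatives with all libraries, 8 left the same number of receptors called (5), and the fit without the intensity trend called 1, with 465 genes called in all, 283 higher and 182 lower, against 1107, 633 and 474. Without that trend the number of called genes was 0 among other receptors, 2 in CD28 and ICOS signalling, 1 in CTLA-4 traffic, 1 among mRNA decay factors, 3 among transcription factors and 1 among follicular genes. Scaling to the same sum gave 309 lower genes, 3 decay factors, 2 ligands, and 74.5% of calls higher against 57.2%, and it turned the signs of *Btla* (log2 fold change 0.040) and *Cd96* (log2 fold change 0.055). A pseudocount of 5 called 1 ligand and library weights called 2. Leaving out each library in turn gave 642 to 1301 genes called, 344 to 761 higher and 278 to 540 lower, with 4 to 5 receptors, the lost call being *Lag3*. The same fits called 0 to 1 ligands, 1 to 3 other receptors, 3 to 6 genes of CD28 and ICOS signalling, 0 to 4 of CTLA-4 traffic, 2 to 5 decay factors, 4 to 11 transcription factors and 2 to 6 follicular genes. The cause of these changes was not tested, and each fit that left out a library also had fewer libraries.

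Replicate numbers were compared through the deviations of libraries from their population means: same-number libraries correlated at -0.0386 to 0.000542 and others at -0.0989 to 0.0772. Over all tested genes, same-number libraries were thus no more alike than others. Whether the numbers mark a shared mouse or sort is not given by the labels, and this comparison cannot settle it. A replicate block called 1183 genes and the same number of receptors. With it the SE of the log2 fold change was 0.29 for *Tigit*, 0.42 for *Lag3* and 0.25 for *Pdcd1*, against 0.47, 0.64 and 0.35 without it. Among the receptors only *Havcr2* had a larger SE with the block (1.06 against 0.99). In the paired sign-flip test the *Ctla4* to *Cd28* (1.17) and *Icos* to *Cd28* (1.26) differences had an exact p of 0.125, the smallest possible with 4 pairs. Low counts limit the precision for *Havcr2*, which was under 36 normalized counts in every library.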

Other observations

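A pattern noticed after the values were seen is the position of 2 TNFR2- libraries. TNFR2- Treg replicate 3 was the highest and replicate 4 the lowest TNFR2- library for *Pdcd1*, *Btla*, *Lag3*, *Havcr2* and *Tigit*, 5 of the 10 receptors. The same held for 11 of 18 transcription factors of the receptor genes and for 4 of 9 follicular genes, beside 11.2% of all 13990 tested genes, 18.8% of the 633 called higher and 4.85% of the 474 called lower. Among the TNFR2+ libraries, replicate 4 was the lowest for 4 of the 10 receptors and for 10 of the 18 transcription factors, beside 25.9% of all tested genes, 47.9% of those called higher and 14.1% of those called lower. The genes of a list share these libraries and are not independent of each other.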
